A study of Mus musculus with 8 samples.

Results

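The 40 genes described here carry out or restrain cell division: 13 act in DNA replication, 14 in mitosis and the entry into it from G2, 8 in G1 and the exit from it, and 5 are inhibitors of cyclin-dependent kinases. They were taken by name from the array design, which holds 57 probes for them among 39429 in all, with 1 probe for 28 of the genes, 2 for 7 and 3 for 5. A probe was tested if its signal lay above the lower threshold on at least 2 arrays, which 53 of the 57 probes and 38 of the 40 genes passed. The cells were IEC10, an immortalized mouse intestinal epithelial line that carries a transgene, firefly luciferase under the Mx2 promoter, according to the study's text. Every group was this same line, controls included, and the genes used to immortalize it are not given in the sources used here. Cells were kept on transwell inserts for 21 days to polarize and to become confluent, and were then left without stimulus (control, 2 arrays), given 20 ng/mL IFN-λ2 for 9 h (3 arrays) or given 500 U/mL IFN-β for 9 h (3 arrays). The comparisons ask how these division genes differ after a type III IFN, after a type I IFN and between the 2 IFNs.

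Cells pass from G1 to S phase when cyclin D with Cdk4, and then cyclin E with Cdk2, release E2F factors from the retinoblastoma proteins. E2F factors then switch on the genes of replication, among them the Mcm helicase subunits, Cdc6 and Cdt1, which load the helicase on origins, and the enzymes that make nucleotides. Cyclin A and cyclin B with Cdk1 drive G2 and mitosis, in which Plk1, the Aurora kinases, Bub1, Bub1b and Cdc20 control spindle assembly and chromosome separation. Cdkn1a, Cdkn1b and Cdkn1c (p21, p27 and p57) inhibit several cyclin and kinase pairs, while Cdkn2a and Cdkn2b encode inhibitors of Cdk4 and Cdk6. In the gut, division is a property of the crypt, and the cells of the villus have left the cycle. Interferons are known to slow division in many cell types.

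The probes of the 2 genes that passed a 2-fold change are shown first, by the initial 30 of their 60 bases as the array files give them, in the sense of the transcript. The Ccnd1 probe lies at chr7:152116202-152116261 and the Cdkn1c probe at chr7:150644753-150644812, both on the minus strand in the mm9 coordinates of the array files. They are followed by the 3 probes that lay at the lower threshold on all 8 arrays, for Aurkb (chr11:68865105-68865164, plus strand), Ccne2 (chr4:11131423-11131482, plus strand) and Cdk1 (chr10:68801053-68801112, minus strand), since these probes gave no measurement. No base is in capitals, because no motif was searched in them.
Ccnd1: ttaatctgttaggttctagtgttccgtctt
Cdkn1c: cgtagagcagcccacggttttgtggaaatc
Aurkb: ttcagaaaaattatgaagaacaacatttta
Ccne2: ttataaactattgttaagatatgaagtttt
Cdk1: aacttaattaacatgtaaatattattccat
Of 60 bases, the Aurkb, Ccne2 and Cdk1 probes hold 12, 9 and 11 G or C, while the 53 tested probes of the 40 genes hold a median of 25, between 11 and 33. The lowest tested value, 11, belongs to another Cdk1 probe that overlaps the one above and read between 1764 and 2188 units. Whether base composition had a part in the missing signal was not tested. Aurkb and Ccne2 have no other probe on the array, so their level was not measured here. The fourth untested probe, the second one for Cdkn1b, was above the threshold on 1 control array, at 25.3 units.

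Promoters are shown for 4 mitotic genes that fell with IFN-λ2 and for 1 replication gene that rose, to show what the promoters of the 2 roles have in common. They come from the RefSeq promoter table of GRCm38.p6, which holds windows of 300 bases, 250 before and 50 after the start, for 31 of the 40 genes. Each line runs 5′ to 3′ on the strand of the gene, from 170 bases before to 30 after the start. The windows are chr4:118437314-118437513 for Cdc20, chr9:70421525-70421724 for Ccnb2, chr11:99024160-99024359 for Top2a, chr2:127831830-127832029 for Bub1 and chr1:128359676-128359875 for Mcm6, all on the minus strand. Capitals mark, on either strand, the E2F motif (TTTGGCGC, TTTCGCGC or TTTCCCGC), the CHR or cell cycle genes homology region (TTTGAA or TTCGAA), and the CCAAT box (CCAAT).
Cdc20: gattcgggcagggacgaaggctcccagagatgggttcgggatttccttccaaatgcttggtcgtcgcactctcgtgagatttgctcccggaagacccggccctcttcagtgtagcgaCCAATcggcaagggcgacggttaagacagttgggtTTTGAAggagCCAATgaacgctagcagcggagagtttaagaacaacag
Ccnb2: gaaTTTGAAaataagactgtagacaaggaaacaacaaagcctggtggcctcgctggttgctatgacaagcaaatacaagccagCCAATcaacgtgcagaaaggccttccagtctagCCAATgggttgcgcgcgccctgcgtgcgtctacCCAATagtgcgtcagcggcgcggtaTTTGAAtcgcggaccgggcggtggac
Top2a: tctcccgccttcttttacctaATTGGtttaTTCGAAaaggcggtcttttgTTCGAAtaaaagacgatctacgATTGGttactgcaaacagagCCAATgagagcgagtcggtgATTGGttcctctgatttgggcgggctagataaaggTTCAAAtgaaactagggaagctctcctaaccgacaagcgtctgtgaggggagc
Bub1: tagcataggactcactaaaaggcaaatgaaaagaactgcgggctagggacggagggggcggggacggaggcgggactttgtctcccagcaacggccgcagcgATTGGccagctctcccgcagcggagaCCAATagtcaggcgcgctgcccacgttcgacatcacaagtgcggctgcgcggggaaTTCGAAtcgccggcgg
Mcm6: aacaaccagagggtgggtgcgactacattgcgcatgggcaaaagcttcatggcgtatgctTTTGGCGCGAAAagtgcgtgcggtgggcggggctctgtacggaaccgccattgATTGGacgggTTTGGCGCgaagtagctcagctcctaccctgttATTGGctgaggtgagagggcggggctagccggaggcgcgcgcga
Cdc20 has a CHR match that starts at position -18 and CCAAT boxes at -53 and -8. In Ccnb2 CHR matches start at -167 and 5, with 3 CCAAT boxes at -87, -54 and -21. The nearest CHR match of Top2a starts at -23, and that of Bub1 at 15. In Mcm6 E2F matches start at -110, -106 and -47, and those at -110 and -106 overlap. Over the whole windows, a CHR match was found in 9 of 11 mitotic genes of the set with a promoter, in 3 of 12 replication genes, in 0 of 4 G1 genes and in 1 of 4 inhibitors, against 19.2% of all 32851 promoters in the table. The E2F motif was found in 6 of 12 replication genes and 1 of 11 mitotic genes, against 1.84% of all promoters. CCAAT boxes were in 10 of 11 mitotic and 9 of 12 replication genes, against 37.4%. Of the 11 mitotic genes, the 6 that fell with IFN-λ2 all hold a CHR match and a CCAAT box, as do 3 and 4, respectively, of the other 5. The ISRE (GAAANNGAAA), bound by interferon regulatory factors, had a match in 1 of the 31 genes, Bub1b, against 3.44% of all promoters. Motif matches are descriptions of these letters, and binding was not measured. The promoters of Ccnd1, Ccnd2, Ccna2, Ccne2, Cdkn1c, Myc, Mcm4, Foxm1 and Aurkb were not analysed here.

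All values below are in normalized gPS units, the background-subtracted green signal of a probe, scaled so that the 75th percentile of each array is 1500, with 15 as the lowest value. Values are given in the order of replicates 2 and 3 for control and 1, 2 and 3 for each IFN, and a gene is represented by its tested probe with the highest mean signal. Between 20992 and 24252 probes per array were well above background and no feature was saturated. For 37 of the 38 tested genes the probe was well above background on all 8 arrays, the exception being Ccnd2. Both IFNs acted on the cells: Oas2, an antiviral enzyme gene, read 105 and 73.7 units in control, 9041, 8595 and 7946 with IFN-λ2, and 3306, 3258 and 3268 with IFN-β. All 4 genes used to check the stimulus were called higher with each IFN. Between the IFNs, Oas2 and Ifit1 were higher with IFN-λ2, at log2 differences of 1.38 ± 0.13 and 0.71 ± 0.08 (SE). Isg15 and Usp18, at 0.07 ± 0.11 and 0.20 ± 0.11 (SE), were not called (limma adjusted p = 0.746 and 0.316). Of 8 epithelial markers, 7 were well above background on all arrays, but Cdx2, an intestinal transcription factor, was so on none. Their summed level ranged from 302014 to 317008 units in control, 342072 to 365048 with IFN-λ2 and 304658 to 347937 with IFN-β, and 2 of them, Cdh1 and Krt19, were higher with IFN-λ2, though with the replicate block the adjusted p of Cdh1 was 0.0766 (limma). Summed leukocyte markers ranged from 6137 to 8620 in control, 2370 to 3941 with IFN-λ2 and 2983 to 11042 with IFN-β, most of it from Itgam, while Ptprc read 43.5 units at most. Fibroblast markers summed to 95 units at most in control, 82 with IFN-λ2 and 109 with IFN-β, with Pdgfra at the threshold throughout, and endothelial markers to between 813 and 997 units over all arrays by the brightest probe of each gene, with Cdh5 at the threshold. A dimmer probe of the endothelial marker Kdr rose with IFN-λ2, from 95.8 and 164 units in control to 403, 400 and 377 (3.13-fold, limma adjusted p = 0.00478), against 164, 114 and 131 with IFN-β, while its brightest probe was not called. The part of these markers in the results was not tested. The labels do not say that arrays of a group came from separate cultures, so the p-values measure the spread between these arrays, which may be technical.

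With IFN-λ2, 4 of the 38 tested genes were higher than control (Ccnd1, Myc, Cdt1 and Mcm6) and 11 were lower (Top2a, Ccna2, Ccnb2, Cdc20, Plk1, Bub1, Bub1b, Ccnd2, Cdkn1b, Cdkn1c and Cdkn2b), by limma with the p-value adjusted over all probes. Among all 20834 gene names tested, 10.3% were called higher and 8.42% lower in this comparison. The changes were small: at 2-fold or more, Ccnd1 remained among the higher and Cdkn1c among the lower, where 2.78% and 1.2% of all gene names passed. With IFN-β, Ccnd1 was higher and none was lower by limma, beside 1.5% and 0.197% of all gene names, and at unadjusted p under 0.05 the counts were 2 and 1, beside 7.2% and 4.68%. The methods' t-test after Benjamini-Hochberg adjustment called none in either direction, beside 0.293% and 0.0625% of all gene names, and none at its p of 0.001 with 2-fold, beside 0.586% and 0.0144%. No gene of the set reached 2-fold with IFN-β, while 0.898% of all gene names rose and 0.0336% fell by that much. Direct comparison of the IFNs gave 1 gene higher with IFN-λ2 (Ccnd1) and 6 lower (Cdkn1c, Ccnd2, Cdc20, Ccna2, Plk1 and Ccnb2), beside 5.74% and 5.97% of all gene names, or 1.51% and 0.835% at 2-fold. Both comparisons against control use the same 2 control arrays, and fewer cells in a phase of the cycle cannot be told apart from less RNA per cell in these bulk samples.

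**Figure D1:**
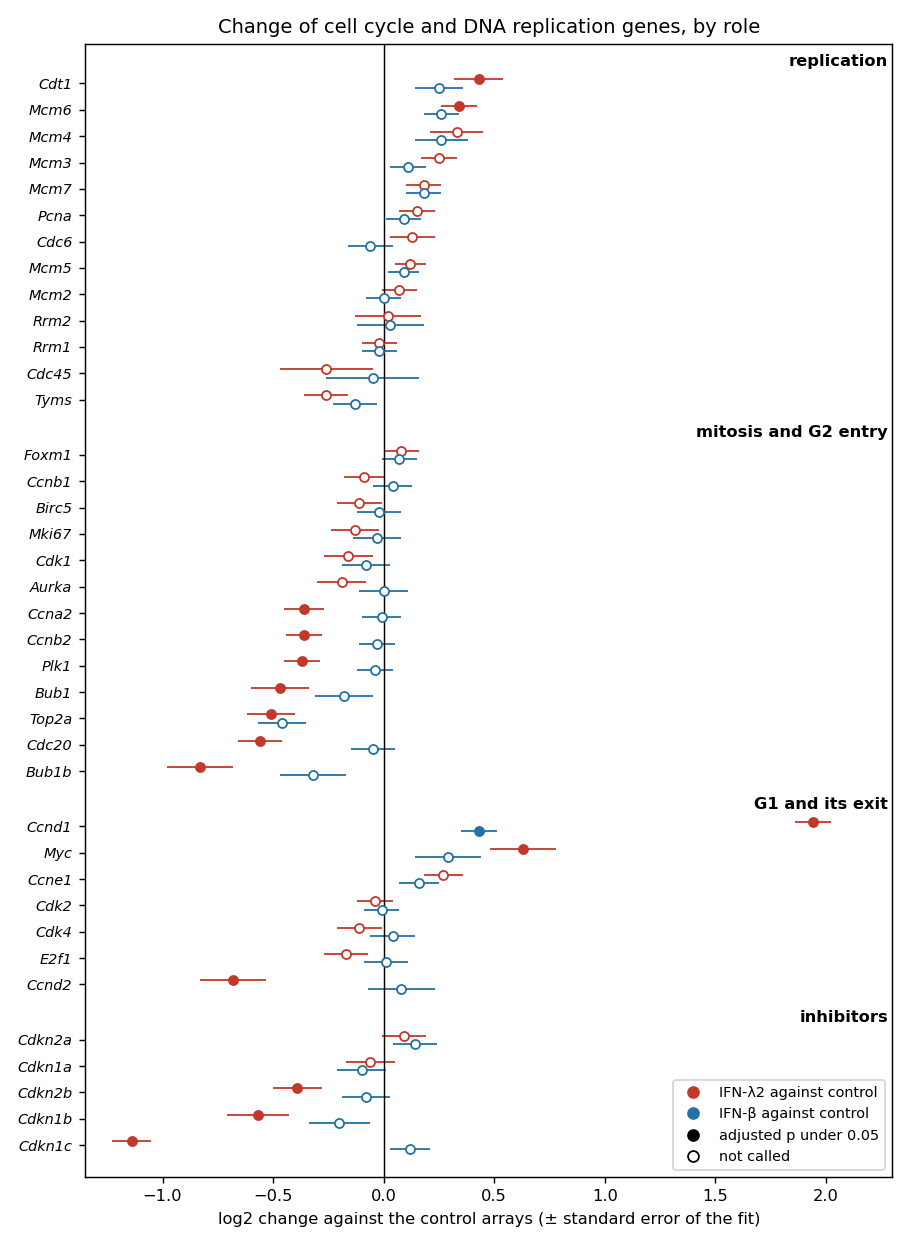
Log2 change (x axis) of the 38 tested genes against the control arrays with IFN-λ2 (red) and IFN-β (blue), by role, with bars for the standard error of the fit and filled points for an adjusted p under 0.05. Ccnd1, at 1.94, and Cdkn1c, at -1.14, lie outside the range of the other genes with IFN-λ2, and 12 of the 13 mitotic genes lie below 0.

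Among the genes of G1, Ccnd1, which encodes the cyclin D1 that partners Cdk4 and Cdk6, showed the largest change of the set. It read 3873 and 4403 units in control, 16164, 15792 and 15620 with IFN-λ2, and 5502, 5626 and 5571 with IFN-β. The groups did not overlap, and the arrays of IFN-λ2 lay well above the others. The mean rose from 4138 ± 375 (SD, n = 2) to 15859 ± 278 (SD, n = 3), which was 3.84-fold or a log2 change of 1.94 ± 0.08 (SE, limma adjusted p = 1.23e-05). Within slides, each of which carried the arrays of 1 replicate number, the log2 change was 2.03 on slide 2 and 1.83 on slide 3. With IFN-β the mean was 5566 ± 62.5 (SD, n = 3), a log2 change of 0.43 ± 0.08 (SE, limma adjusted p = 0.0472). This call was lost with the replicate number as a block (adjusted p = 0.189), without any 1 of 7 of the 8 arrays and in 6 of 12 other settings, while the log2 change stayed between 0.34 and 0.52. Between the IFNs the log2 difference was 1.51 ± 0.07 (SE, limma adjusted p = 1.44e-04), with 1.55, 1.49 and 1.49 on slides 1, 2 and 3.

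Ccnd2, which encodes the related cyclin D2, moved the other way at a low signal. Its probe read 53.6 and 60.0 units in control, 38.2, 29.6 and 39.4 with IFN-λ2 and 56.1, 67.5 and 56.9 with IFN-β. The IFN-λ2 arrays were the lowest, and the array at 29.6 was not well above background. Its log2 change was -0.68 ± 0.15 (SE, limma adjusted p = 0.023) against control and -0.76 ± 0.13 (SE, adjusted p = 0.0143) against IFN-β. With the replicate block the adjusted p became 0.0708 and 0.0512, and with a floor of 50 units, which lies within its values, both calls were lost.

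Myc, a transcription factor that promotes growth and entry into S phase, read 7073 and 5641 units in control, 10121, 8426 and 10840 with IFN-λ2 and 8128, 7057 and 7979 with IFN-β. IFN-λ2 arrays lay above the other 2 groups. With IFN-λ2 the log2 change was 0.63 ± 0.15 (SE, limma adjusted p = 0.0273), a 1.54-fold rise, and it was 0.25 on slide 2 against 0.94 on slide 3. The call was lost with the replicate block (adjusted p = 0.0853), and the log2 change with IFN-β was 0.29 ± 0.15 (SE, adjusted p = 0.508). The other tested genes of this role, Ccne1 (cyclin E1), Cdk2, Cdk4 and E2f1, changed by between -0.17 and 0.27 with IFN-λ2 and between -0.01 and 0.16 with IFN-β on the log2 scale, and none was called. Ccne1 came nearest, with a log2 change of 0.27 ± 0.09 with IFN-λ2 (SE, limma adjusted p = 0.0839) on its brighter probe, while its dimmer probe gave 0.02 ± 0.19 (SE, adjusted p = 0.968).

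Of the 5 inhibitors, 3 were lower with IFN-λ2 and none was called with IFN-β, beside 8.42% of all gene names lower with IFN-λ2 and 1.5% higher and 0.197% lower with IFN-β. At unadjusted p under 0.05 no inhibitor differed with IFN-β, beside 7.2% of all gene names higher and 4.68% lower. Nor did any by the methods' t-test with IFN-β, beside 0.293% and 0.0625% after Benjamini-Hochberg adjustment and 0.586% and 0.0144% at p 0.001 with 2-fold. Cdkn1c was the 1 inhibitor called lower with IFN-λ2 without control replicate 3, with normexp background correction and with the replicate block. In these settings 4.94%, 0.695% and 5.75% of all gene names were called lower. Cdkn1c, which encodes p57 and is an imprinted gene, read 2590 and 2936 units in control, 1256, 1275 and 1218 with IFN-λ2 and 3219, 2802 and 2958 with IFN-β. Each IFN-λ2 array was below every other array, while control and IFN-β overlapped. The mean fell from 2763 ± 244 (SD, n = 2) to 1250 ± 28.6 (SD, n = 3), 2.21-fold lower than control, at a log2 change of -1.14 ± 0.09 (SE, limma adjusted p = 3.53e-04), with -1.02 on slide 2 and -1.27 on slide 3. Against IFN-β, with a mean of 2993 ± 211 (SD, n = 3), it was 2.39-fold lower with IFN-λ2, a log2 difference of -1.26 ± 0.08 (SE, adjusted p = 3.72e-04). IFN-β itself changed Cdkn1c by 0.12 ± 0.09 on the log2 scale (SE, adjusted p = 0.673).

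Cdkn1b, which encodes p27, read 3376 and 4441 units in control, 2688, 2790 and 2371 with IFN-λ2 and 3708, 3263 and 3174 with IFN-β. IFN-λ2 arrays were the lowest, and the control arrays differed from each other more than the IFN arrays did. Its log2 change with IFN-λ2 was -0.57 ± 0.14 (SE, limma adjusted p = 0.0334), -0.28 on slide 2 and -0.91 on slide 3, and with the replicate block the adjusted p was 0.0709. Cdkn2b, which encodes the Cdk4 inhibitor p15, has 2 tested probes. The brighter one read 6341 and 5711 units in control, 4367, 4529 and 4887 with IFN-λ2 and 5161, 5687 and 6350 with IFN-β, and the dimmer one 916 and 913, then 673, 736 and 693, then 899, 868 and 980. On both probes the IFN-λ2 arrays were below all others. The log2 changes with IFN-λ2 were -0.39 ± 0.11 (SE, limma adjusted p = 0.0487, or 0.0953 with the replicate block) and -0.38 ± 0.08 (SE, adjusted p = 0.0184, or 0.0621). Against IFN-β the dimmer probe was also called, at -0.38 ± 0.07 (SE, adjusted p = 0.017), and the brighter one, at -0.32 ± 0.10, was not (adjusted p = 0.0893).

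The remaining inhibitors, Cdkn1a and Cdkn2a, were not called in any comparison. Cdkn1a, the p53 target that encodes p21, read 17565 and 20198 units in control, 16248, 18296 and 19685 with IFN-λ2 and 19063, 16568 and 17251 with IFN-β, and the groups overlapped. Its log2 change was -0.06 ± 0.11 with IFN-λ2 (SE, limma adjusted p = 0.736) and -0.10 ± 0.11 with IFN-β (SE, adjusted p = 0.793). Its dimmer probes varied more within groups, with 299 and 574 units on the control arrays of one and 35.3 and 74.5 on those of the other. Cdkn2a, whose locus encodes p16 and p19Arf, read 67925 and 69375 units in control, 70599, 75387 and 73801 with IFN-λ2 and 66529, 82251 and 78544 with IFN-β. On the log2 scale the change was 0.09 ± 0.10 with IFN-λ2 (SE, limma adjusted p = 0.562) and 0.14 ± 0.10 with IFN-β (SE, adjusted p = 0.656). Which of the Cdkn2a transcripts its 2 probes read was not examined.

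**Figure D2:**
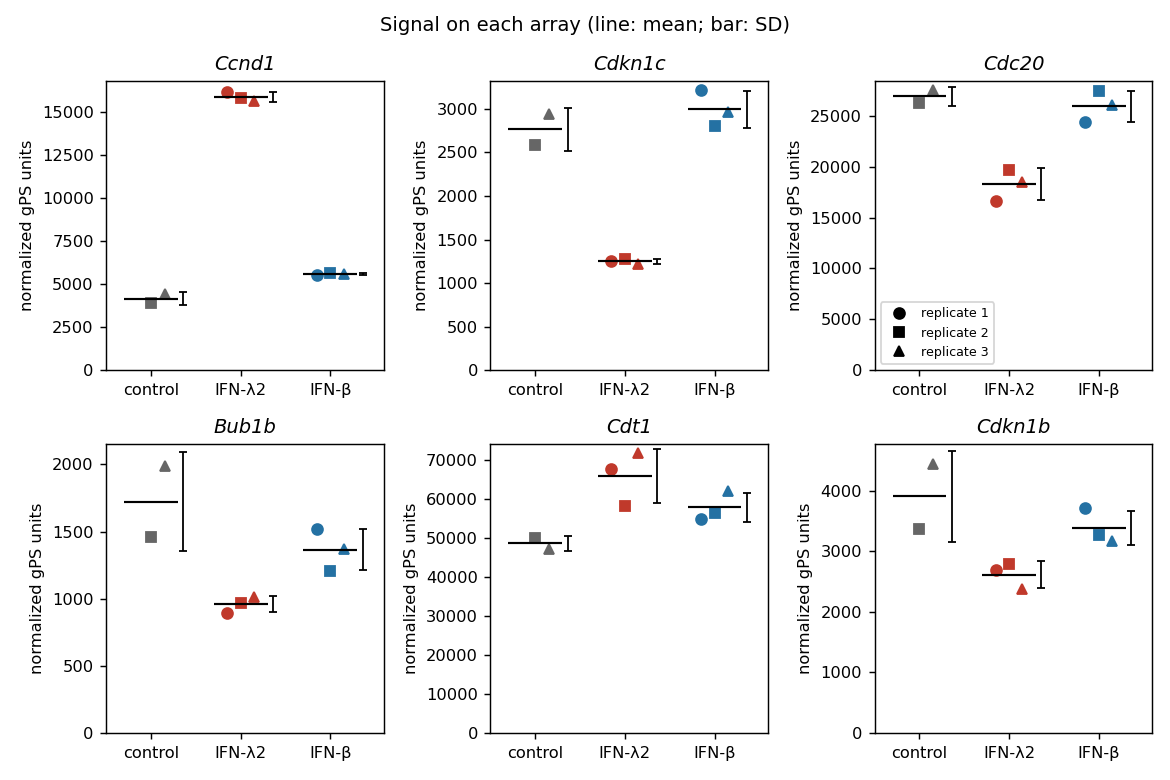
Signal in normalized gPS units (y axis, from 0) of 6 genes on each array, with symbols for replicate numbers, a line for the group mean and a bar for the SD. For Ccnd1 and Cdkn1c the IFN-λ2 arrays stand far from the other 5, whereas for Cdt1 and Cdkn1b the distance between groups is close to the spread within them.

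Of the 13 tested mitotic genes, 7 fell with IFN-λ2 by limma and none rose, beside 8.42% and 10.3% of all gene names. All 7 calls were lost without control replicate 3, where 4.94% of all gene names were called lower, and likewise with normexp, where 0.695% were. With the replicate block 4 remained, beside 5.75%. At unadjusted p under 0.05 the counts were 7 and 0, beside 15.9% and 17.5%, and the methods' t-test after Benjamini-Hochberg adjustment called 1, Plk1, lower and 0 higher, beside 2.53% and 3.91%. The median log2 change over the 13 was -0.36, against 0.01 over all gene names, and 12 of the 13 lay below 0. Bub1b, which encodes the spindle checkpoint kinase BubR1, read 1461 and 1986 units in control, 897, 966 and 1015 with IFN-λ2 and 1519, 1210 and 1370 with IFN-β. All IFN-λ2 arrays were below the others, and control and IFN-β overlapped. The log2 change was -0.83 ± 0.15 (SE, limma adjusted p = 0.0122), 1.78-fold lower, with -0.60 on slide 2 and -0.97 on slide 3, and against IFN-β the difference of -0.51 ± 0.14 was not called (adjusted p = 0.062), though it was without control replicate 2 or 3 (adjusted p = 0.035 and 0.0349).

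Cdc20, the activator of the anaphase-promoting complex, read 26255 and 27589 units in control, 16610, 19708 and 18545 with IFN-λ2 and 24404, 27421 and 26023 with IFN-β. The IFN-λ2 arrays did not overlap with those of either other group. The log2 change was -0.56 ± 0.10 (SE, limma adjusted p = 0.00888) against control, 1.48-fold lower, and -0.51 ± 0.09 (SE, adjusted p = 0.0122) against IFN-β, with -0.56, -0.48 and -0.49 on slides 1, 2 and 3. Plk1, the kinase that controls centrosomes and mitotic entry, read 13026 and 12696 units in control, 9540, 10165 and 10080 with IFN-λ2 and 11609, 13362 and 12696 with IFN-β. Again the IFN-λ2 arrays were the lowest. Its log2 change was -0.37 ± 0.08 against control (SE, limma adjusted p = 0.0217) and -0.34 ± 0.07 against IFN-β (SE, adjusted p = 0.0293).

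The 2 cyclins that fell in this role were Ccnb2 and Ccna2. Ccnb2, a partner of Cdk1, read 10210 and 9590 units in control, 7452, 8120 and 7503 with IFN-λ2 and 9226, 10005 and 9772 with IFN-β. Its log2 change was -0.36 ± 0.08 against control (SE, limma adjusted p = 0.0195) and -0.33 ± 0.07 against IFN-β (SE, adjusted p = 0.0258). Ccna2, the cyclin of S phase and G2, read 20470 and 24149 units in control, 16732, 17785 and 17577 with IFN-λ2 and 21503, 22451 and 22318 with IFN-β. For both cyclins every IFN-λ2 array was below every other array. The log2 change of Ccna2 was -0.36 ± 0.09 against control (SE, limma adjusted p = 0.0321) and -0.35 ± 0.08 against IFN-β (SE, adjusted p = 0.0337), and with the replicate block these adjusted p-values were 0.0782 and 0.0671.

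Top2a, the topoisomerase that untangles chromosomes, was the mitotic gene whose values with the 2 IFNs lay closest to each other among those called. It read 6000 and 7568 units in control, 4530, 4958 and 4696 with IFN-λ2 and 4826, 5054 and 4813 with IFN-β. Both IFN groups lay below control and overlapped with each other. The log2 change was -0.51 ± 0.11 with IFN-λ2 (SE, limma adjusted p = 0.0191, or 0.066 with the replicate block) and -0.46 ± 0.11 with IFN-β (SE, adjusted p = 0.128), and it was -0.28 on slide 2 and -0.69 on slide 3 with IFN-λ2. Without control replicate 2, the lower of the 2 control arrays, Top2a was called lower with IFN-β, at -0.63 (adjusted p = 0.0384). Bub1, a spindle checkpoint kinase, read 1729 and 1626 units in control, 1125, 1144 and 1366 with IFN-λ2 and 1295, 1543 and 1615 with IFN-β. Its IFN-λ2 arrays were below control and overlapped with IFN-β, at a log2 change of -0.47 ± 0.13 (SE, limma adjusted p = 0.0447, or 0.0726 with the replicate block).

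Mki67 and Cdk1, widely used as landmarks of dividing cells, were not called. Mki67, the proliferation antigen Ki-67, read 15502 and 14784 units in control, 13769, 12377 and 15662 with IFN-λ2 and 13869, 15543 and 14971 with IFN-β, and the 3 groups overlapped. The log2 change was -0.13 ± 0.11 with IFN-λ2 (SE, limma adjusted p = 0.474) and -0.03 ± 0.11 with IFN-β (SE, adjusted p = 0.941). Its second probe gave -0.20 ± 0.09 (SE, adjusted p = 0.181) and -0.09 ± 0.09 (SE, adjusted p = 0.756). Cdk1, the mitotic kinase, read 2016 and 2145 units in control, 1775, 1764 and 2052 with IFN-λ2 and 1786, 1949 and 2188 with IFN-β on its brighter probe, at log2 changes of -0.16 ± 0.11 and -0.08 ± 0.11. On its dimmer probe, at 121 and 126 units in control, 138, 142 and 152 with IFN-λ2 and 124, 137 and 171 with IFN-β, the log2 changes had the other sign, 0.22 ± 0.14 and 0.21 ± 0.14, and limma called neither probe. Ccnb1, Aurka, Birc5 and Foxm1, the remaining tested mitotic genes, lay between -0.19 and 0.08 with IFN-λ2 and between -0.02 and 0.07 with IFN-β on the log2 scale. Foxm1, a transcription factor of the mitotic genes, was the single tested gene of this role above 0 with IFN-λ2, at 0.08 ± 0.08 on its brighter probe, while its dimmer probe gave -0.29 ± 0.18.

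Of the 13 replication genes, 2 were higher with IFN-λ2 and none was lower by limma, beside 10.3% and 8.42% of all gene names. At unadjusted p under 0.05 the counts were 4 and 1, beside 17.5% and 15.9%. The methods' t-test called 0 in either direction. Beside this, it called 3.91% and 2.53% of all gene names after Benjamini-Hochberg adjustment, and 1.2% and 0.27% at p 0.001 with 2-fold. With IFN-β limma called none, beside 1.5% and 0.197% of all gene names, and 1 was higher and 0 lower at unadjusted p under 0.05, beside 7.2% and 4.68%. The methods' t-test called none with IFN-β, beside 0.293% and 0.0625% after adjustment and 0.586% and 0.0144% at p 0.001 with 2-fold. Both IFN-λ2 calls, those of Cdt1 and Mcm6, were lost under quantile normalization, with normexp, with the replicate block and without control replicate 3. Their median log2 change was 0.13 with IFN-λ2 and 0.09 with IFN-β, with 10 and 9 of the 13 above 0, and under quantile normalization it was -0.02 and -0.04. Cdt1, which loads the Mcm helicase on DNA, read 49954 and 47238 units in control, 67667, 58110 and 71749 with IFN-λ2 and 54957, 56370 and 62155 with IFN-β. Control was below both IFN groups, which overlapped. The log2 change with IFN-λ2 was 0.43 ± 0.11 (SE, limma adjusted p = 0.035), or 1.35-fold, with 0.22 on slide 2 and 0.60 on slide 3, and the adjusted p was 0.0726 with the replicate block.

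Mcm6, a helicase subunit, read 104682 and 97457 units in control, 127972, 124854 and 130523 with IFN-λ2 and 113233, 124309 and 124878 with IFN-β. Control was again below both IFN groups, and the IFN-λ2 and IFN-β arrays overlapped narrowly. Its log2 change was 0.34 ± 0.08 with IFN-λ2 (SE, limma adjusted p = 0.0244, or 0.0557 with the replicate block), between 0.20 and 0.39 over the alternatives, and 0.26 ± 0.08 with IFN-β (SE, adjusted p = 0.235). Mcm2, another subunit, read 8725 and 9672 units in control, 9818, 10152 and 9068 with IFN-λ2 and 9569, 8921 and 9089 with IFN-β. The groups overlapped, at log2 changes of 0.07 ± 0.08 (SE, limma adjusted p = 0.582) and 0.00 ± 0.08. Pcna, the sliding clamp of the DNA polymerases, read 44444 and 44516 units in control, 48106, 47559 and 52846 with IFN-λ2 and 44848, 47718 and 49425 with IFN-β, and its log2 change with IFN-λ2 was 0.15 ± 0.08 (SE, limma adjusted p = 0.229).

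The other 9 replication genes ranged from -0.26 to 0.33 with IFN-λ2 and from -0.13 to 0.26 with IFN-β on the log2 scale, and none was called by its brightest probe. Mcm4, at 0.33 ± 0.12 (SE, limma adjusted p = 0.112), and Mcm3, at 0.25 ± 0.08 (SE, adjusted p = 0.064), were the highest, and Cdc45 and Tyms, both at -0.26, the lowest. The probes of Cdc6, which loads the helicase together with Cdt1, disagreed in call. Its brighter probe read 1340 and 1399 units in control, 1498, 1357 and 1650 with IFN-λ2 and 1314, 1249 and 1377 with IFN-β, at a log2 change of 0.13 ± 0.10 with IFN-λ2 (SE, limma adjusted p = 0.408). The dimmer probe read 967 and 952, then 1303, 1262 and 1406, then 980, 1071 and 1122 units, and was called higher with IFN-λ2 at 0.46 ± 0.09 (SE, adjusted p = 0.0122) and higher than with IFN-β at 0.33 ± 0.08 (SE, adjusted p = 0.0396, or 0.0629 with the replicate block). For Rrm1 and Rrm2, the ribonucleotide reductase subunits, the log2 changes with IFN-λ2 were -0.02 ± 0.08 and 0.02 ± 0.15.

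**Figure D3:**
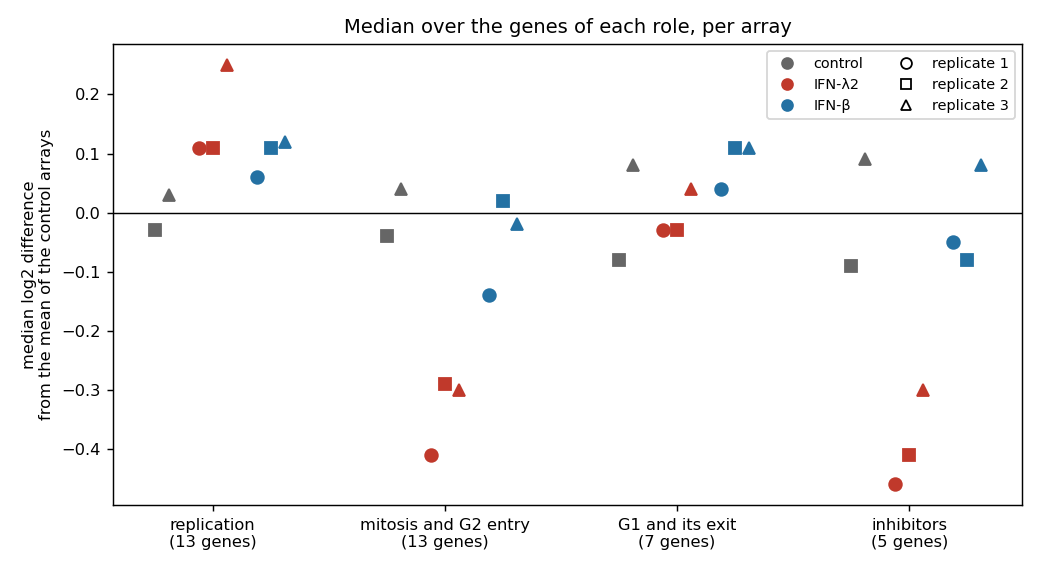
Median, over the tested genes of each role, of the log2 difference from the mean of the control arrays (y axis), for each array, with symbols for replicate numbers. Mitotic genes lie between -0.41 and -0.29 on the IFN-λ2 arrays, below the control and IFN-β arrays, which lie between -0.14 and 0.04.

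Taken array by array, the mitotic medians were -0.04 and 0.04 in control, -0.41, -0.29 and -0.30 with IFN-λ2, and -0.14, 0.02 and -0.02 with IFN-β, on the log2 scale relative to the mean of the control arrays. The replication medians were -0.03 and 0.03 in control, 0.11, 0.11 and 0.25 with IFN-λ2, and 0.06, 0.11 and 0.12 with IFN-β. For mitosis the IFN-λ2 arrays lay below the rest. For replication the arrays of both IFNs lay above control on this scaling, but not under quantile normalization, where the medians with IFN-λ2 and IFN-β were -0.02 and -0.04. Within slides, 12 of 13 mitotic genes on slide 2 and 10 of 13 on slide 3 were lower with IFN-λ2 than in the control of that slide, with medians of -0.28 and -0.25. Against IFN-β, 12, 13 and 11 of the 13 were lower with IFN-λ2 on slides 1, 2 and 3. Each of these counts compares 2 single arrays, and the share of all gene names within slides was not computed. Over all arrays, 10149 of 20834 gene names lay below 0 with IFN-λ2 against control, and 11123 against IFN-β. For the inhibitors the medians were -0.46, -0.41 and -0.30 with IFN-λ2 and between -0.08 and 0.08 with IFN-β. For the G1 genes they were -0.03, -0.03 and 0.04 with IFN-λ2 and 0.04, 0.11 and 0.11 with IFN-β. Arrays of 1 group shared their place on the slides, so that place and treatment cannot be told apart.

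Beside the 40 genes, 115 other genes of the cell cycle were listed, and 113 of them were found on the array by name and tested. With IFN-λ2, 5 were higher and 20 lower, again beside 10.3% and 8.42% of all gene names, and the median log2 change was -0.13. The 44 other mitotic genes held 12 of the lower ones and 1 of the higher, with a median of -0.30 and 39 of the 44 below 0. Among the 31 other replication genes 1 was higher and 2 lower, with a median of -0.05, on the other side of 0 from the 13 replication genes above. Of the 20 other G1 genes 1 was higher and 1 lower, and of the 18 genes of inhibition and arrest 2 were higher and 5 lower. With IFN-β 1 of the 113 was higher and none lower by limma, beside 1.5% and 0.197% of all gene names, with 2 and 8 at unadjusted p under 0.05, beside 7.2% and 4.68%.

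The largest decrease in this list was that of Ccng2, which encodes cyclin G2 and is linked to arrest. It read 472 and 466 units in control, 223, 252 and 284 with IFN-λ2 and 279, 378 and 400 with IFN-β, at a log2 change of -0.90 ± 0.17 with IFN-λ2 (SE, limma adjusted p = 0.0136). The groups of both IFNs lay below control and overlapped narrowly. Cdkn2d, the p19 inhibitor of Cdk4 and Cdk6, read 8747 and 8108 units in control, 4847, 4900 and 5520 with IFN-λ2 and 6329, 6843 and 7747 with IFN-β, at log2 changes of -0.73 ± 0.11 against control (SE, limma adjusted p = 0.00539) and -0.45 ± 0.10 against IFN-β (SE, adjusted p = 0.0292). Nusap1, a spindle microtubule protein, read 2915 and 2924 units in control, 1750, 1866 and 2034 with IFN-λ2 and 2304, 2554 and 2645 with IFN-β, at -0.64 ± 0.09 against control (SE, limma adjusted p = 0.00515). For Cdkn2d and Nusap1 the 3 groups did not overlap, with IFN-λ2 lowest and control highest.

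Pttg1 and Gadd45g were among the genes of this list called higher with IFN-λ2. Pttg1, the securin that holds back separase, was called against control with both IFNs, and was the single mitotic gene of this list called higher. It read 9345 and 9562 units in control, 12576, 12913 and 13607 with IFN-λ2 and 13044, 13787 and 15091 with IFN-β, at 0.46 ± 0.08 (SE, limma adjusted p = 0.0112) and 0.56 ± 0.08 (SE, adjusted p = 0.0227). Gadd45g, a growth arrest gene, read 60221 and 53935 units in control, 72430, 80535 and 80816 with IFN-λ2 and 71099, 76519 and 72577 with IFN-β, at 0.45 ± 0.09 with IFN-λ2 (SE, limma adjusted p = 0.0145). For Pttg1 and Gadd45g both IFN groups lay above control.

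**Figure D4:**
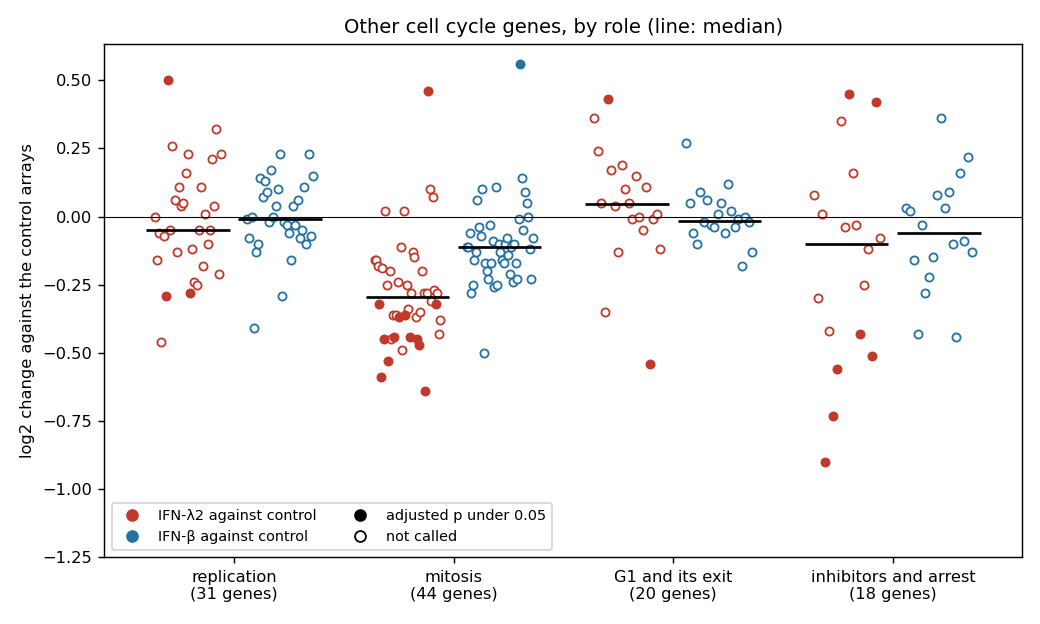
Log2 change against control (y axis) of the 113 other cell cycle genes with IFN-λ2 (red) and IFN-β (blue), by role, filled where the adjusted p was under 0.05, with a line at each median. The 44 mitotic genes have their median at -0.30 with IFN-λ2 and at -0.11 with IFN-β, and the medians of the other roles with IFN-λ2 lie between -0.10 and 0.04.

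How far the calls depend on single arrays and on the processing differed between the genes. The IFN-λ2 calls of Ccnd1 and Cdkn1c, against control and against IFN-β, were kept in all 12 processing or model settings and without each of the 8 arrays. Cdc20 and Bub1b kept their IFN-λ2 call against control in 11 of 12 settings and in 7 of 8 omissions, and Ccnb2 and Plk1 in 11 of 12 settings and 4 of 8 omissions. At the other end, Cdkn2b kept it in 6 of 12 settings and 2 of 8 omissions. Without control replicate 3, 1 gene of the set was higher and 1 lower with IFN-λ2, beside 5.73% and 4.94% of all gene names. With normexp background correction the counts were again 1 and 1, beside 2.11% and 0.695%. In that setting all 40 genes and all 31791 gene names passed the filter on dim probes, so background correction and filter changed together. With the replicate block, 1 was higher and 5 lower against control, beside 7.44% and 5.75% of all gene names. Against IFN-β 1 was higher and 4 lower with the block, beside 4.29% and 4.56%. The sign of each called change was the same in all 20 alternatives.

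**Figure D5:**
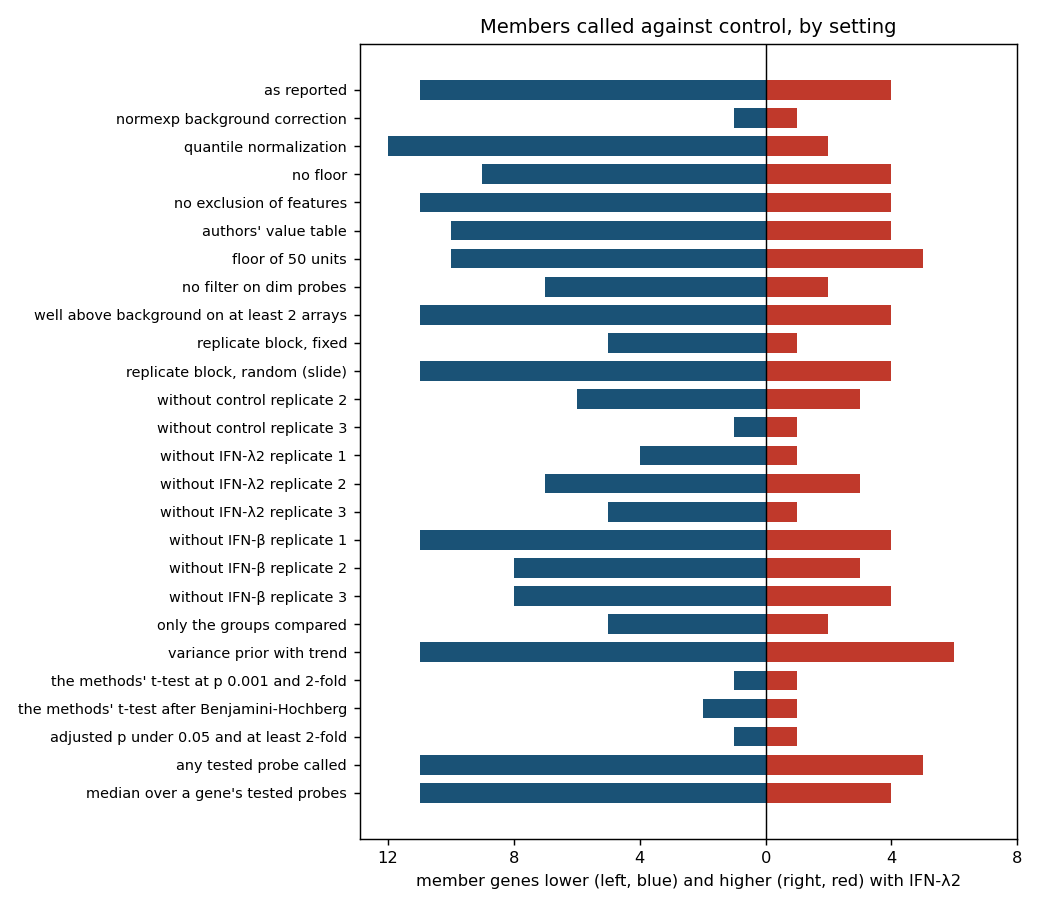
Number of the set's genes called lower (blue, to the left) and higher (red, to the right) with IFN-λ2 against control as reported and under each alternative setting. Counts range from 1 to 12 for lower and from 1 to 6 for higher genes, and are 1 and 1 without control replicate 3.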

How the data were processed

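Total RNA of 8 samples was labelled with Cy3 and hybridised to Agilent 1-color arrays. The authors deposited, for each array, the feature intensity from Feature Extraction 10.7.3.1, with background subtracted in the processed signal, and a table of scaled intensity values, which was an alternative here. Features that were flagged, outliers, outside 1.42 times the interquartile range of their copies or with a pixel coefficient of variation above 0.5 were left out. The geometric mean of each probe was multiplied so that the array's 75th percentile was 1500, raised to 15 where lower, and put on the log2 scale. After a constant offset per array, the values of brighter probes differed from the deposited table by at most 0.0643 on the log2 scale. Values nearer the floor of 15 were not compared. The 25971 of 39429 probes that exceeded 15 on 2 or more arrays were fitted with limma 3.58.1 in R 4.3.3 as 3 group means over all arrays, with Benjamini-Hochberg adjustment over these probes at 0.05. The code was tested on simulated data. Coordinates of probes are on mm9. Tables used Python 3.11.15 and pandas 2.3.3. Fold changes were calculated from log2 means.

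The genes and lists were chosen with earlier results of these data known. Genes shown with every array were the inhibitors, Mki67, Pcna, Mcm2, Cdk1, Ccnd1 and Myc, and the other genes of the set called in any comparison; of the other cell cycle genes, the 3 with the largest called change in each direction with IFN-λ2 and up to 2 with IFN-β, of which 1 is not reported here. Slide, scan and replicate number coincide. Deviations from the group means correlated between IFN-λ2 and IFN-β arrays of the same number (0.181, 0.257 and 0.297 for replicates 1, 2 and 3), so that the numbers pair these arrays, but not with control (between -0.0627 and 0.0991). No array of control replicate 1 was used here. Alternatives were normexp, quantile normalization, other floors, filters and value sources, the replicate block, leaving out each array, other variance models, the methods' t-test, a 2-fold rule and other probe choices. The intervals are limited by the number of arrays.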

Additional observations from a re-analysis of the deposited data

How the results depend on the processing

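As reported, 4 genes of the set were higher and 11 lower with IFN-λ2 than in control, 1 higher and 0 lower with IFN-β (limma, and 2 and 1 at unadjusted p under 0.05), and 1 higher and 6 lower with IFN-λ2 than with IFN-β. The count of genes higher with IFN-λ2 was 1 with normexp, with the fixed replicate block, with the methods' t-test (at p 0.001 and 2-fold or after Benjamini-Hochberg) and at adjusted p with 2-fold, and 2 with quantile normalization, without a filter on dim probes and with only the groups compared. The count of lower genes was 1 with normexp, with the t-test at p 0.001 and 2-fold and at adjusted p with 2-fold, 2 with the t-test after Benjamini-Hochberg, 5 with the fixed replicate block and with only the groups compared, and 7 without the filter. With IFN-β the higher gene, Ccnd1, was lost (0 genes) with normexp, quantile normalization, no floor, the deposited table, the fixed replicate block, only the groups compared, the t-test under both rules and the 2-fold rule. Of all gene names, the first 6 of these called 0.566%, 1.46%, 1.45%, 1.57%, 0.984% and 0.912% higher with IFN-β. The t-test called 0.586% at p 0.001 with 2-fold and 0.293% after Benjamini-Hochberg, and the 2-fold rule 0.898%, against 1.5% as reported. Between the IFNs, the lower genes were 1 with normexp, with the t-test at p 0.001 and 2-fold and with the 2-fold rule, and 3 with the t-test after Benjamini-Hochberg, and the higher genes were 2 where any called probe counts. Leaving out 1 array gave 1 to 4 higher and 1 to 11 lower genes with IFN-λ2, 0 to 1 higher and 0 to 1 lower with IFN-β, and between the IFNs 1 higher throughout and 3 to 7 lower. Of all gene names, these omissions called 5.73% to 11.1% higher and 4.52% to 9.3% lower with IFN-λ2, 1.06% to 1.36% and 0.0678% to 0.369% with IFN-β, and 3.27% to 5.51% and 2.81% to 6.12% between the IFNs. Without control replicate 3 the counts with IFN-λ2 were 1 and 1, and without control replicate 2 they were 3 and 6 (6.54% and 5.56% of all gene names). Without IFN-λ2 replicate 1 they were 1 and 4 (6.28% and 4.52% of all gene names), without replicate 2 they were 3 and 7 (8.27% and 6.14%) and without replicate 3 they were 1 and 5 (6.9% and 6.07%), and without IFN-β replicates 1, 2 and 3 they were 4 and 11 (11.1% and 9.3%), 3 and 8 (9.12% and 8.84%), and 4 and 8 (8.44% and 6.73%).

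The calls over all gene names moved too, and with normexp or without the filter 31791 gene names were tested. With IFN-λ2, 10.3% were higher and 8.42% lower as reported, 2.11% and 0.695% with normexp, 9.28% and 9.91% with quantile normalization, 5.92% and 4.35% without the filter, 7.44% and 5.75% with the fixed replicate block, 8.41% and 7.78% with only the groups compared, 1.2% and 0.27% by the t-test at p 0.001 and 2-fold, 3.91% and 2.53% by it after Benjamini-Hochberg, 2.78% and 1.2% at adjusted p with 2-fold, and 5.73% and 4.94% without control replicate 3. Between the IFNs 0.444% were lower with normexp, 0.347% and 3.19% by the t-test under its 2 rules and 0.835% at adjusted p with 2-fold, against 5.97% as reported.

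The median change of the replication genes with IFN-λ2 turned from 0.13 to -0.02 under quantile normalization. That of the mitotic genes stayed between -0.45 and -0.24, the latter without control replicate 3. Normexp moved the median of all gene names with IFN-λ2 from 0.01 to 0.11, and the median of the mitotic genes was then -0.26. With slide as a random replicate block the counts were as reported. The causes were not tested. Precision is limited by the 2 control arrays, and for Ccnd2 by a signal near background.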
